A study of Mus musculus with 6 samples.

Results

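The change in gene expression between the cervical loop (CL) and the secretory stage (Sec) was examined within the Med1-null incisor, with KO Sec set against KO CL. A gene was included when its probe was detected on either of these 2 arrays, with a detection p-value under 0.01 relative to that array's negative controls. This held for 9249 of the 16593 genes on the array, of which 8054 were detected on both arrays, 592 at Sec alone and 603 at CL alone. KO mice carried MED1 fl/fl with a K14-driven Cre, which removes Med1 from epithelium expressing keratin 14, and control littermates (CON, labelled WT) carried MED1 fl/fl with no Cre. Both were C57BL/6 mice at 4 weeks of age. Dental tissue was microdissected from the lower incisors at 3 stages, CL, Sec and maturation (Mat), with 3 mice pooled per array and 1 array per genotype and stage, 6 in all. CON Sec and CON CL show which parts of the KO change were also seen in CON, and the Mat arrays place genes at the next stage. The model is limited in that only cells in which the keratin 14 promoter is or was active, and their descendants, lose Med1. The dissected tissue also holds mesenchyme, vessels, nerve and blood cells. A CL fraction holds proliferating inner dental epithelium beside the stem cells. Per the methods, no hairs were seen under the dissecting microscope at this age. The paper's results nevertheless report a few hairs in KO incisors at 4 weeks, also in tissue sections. Each group had 1 pooled array, which leaves the variation among mice unmeasured, and no p-value is given here. A count of genes higher or lower is a description of 2 arrays.

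The mouse incisor grows throughout life. Stem cells in the cervical loop at its apical end give rise to dividing progenitors, which become secretory ameloblasts that lay down enamel matrix proteins and, further along the tooth, maturation ameloblasts that remove the matrix and carry ions for mineralization. Hair and epidermis are other products of surface ectoderm: hair keratins and keratin-associated proteins build the hair shaft, a separate set of keratins builds the inner root sheath around it, and cornified envelope proteins seal the outer layers of epidermis. Mediator 1 is a subunit of the Mediator complex, which links transcription factors, nuclear receptors among them, to RNA polymerase II.

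Levels are given as normalized log2 intensities and differences as log2(Sec) minus log2(CL), so that a positive value is higher at Sec. Detected genes numbered between 8355 and 8955 on the 6 arrays, and the lowest value detected was 6.02 on both KO Sec and KO CL, 6.13 on CON Sec and 6.19 on CON CL. Where a gene was detected at 1 stage only, the floor stood in for the undetected level unless that level was itself above it, and the resulting difference is a limit, written as at least. Genes were called higher or lower where the stages differed by 1.5-fold or more and the brighter of the arrays detected the probe. Med1 itself was at 8.71 at Sec and 9.04 at CL in KO, against 9.35 and 9.58 in CON, a difference of -0.32 between the stages in KO. Where its probe lies against the deleted part of the gene was not known, so it is no check of the deletion. Sox2, a marker of incisor stem cells, was detected on none of these 4 arrays, while Shh, secreted by the dividing progenitors, was at 11.02 at Sec and 12.65 at CL in KO, and the ameloblast genes Amelx, Ambn and Enam were bright on every array. Of 9 housekeeping genes, 8 differed by less than 1.5-fold between KO Sec and KO CL, with Gapdh at 14.25 and 14.06.

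In KO, 1342 genes were higher at Sec than at CL (14.5% of the 9249 considered) and 1782 were lower (19.3%), while 6125 were neither. In CON, 576 of 8757 genes were higher at Sec (6.58%) and 489 were lower (5.58%). Large differences were upward in most cases. At least 4-fold, 319 genes were higher and 52 lower in KO, against 45 and 5 in CON. At least 16-fold, 80 genes were higher and 0 lower in KO, against 5 and 1 in CON. Across the 7819 genes detected on all 4 arrays the differences had an SD of 0.727 in KO and 0.432 in CON, and the changes of the 2 genotypes, which share no array, had a Pearson correlation of 0.532 and a Spearman correlation of 0.497. Genes are not independent replicates, and these correlations describe 4 arrays. The median difference over all genes considered was -0.13 in KO and -0.05 in CON. When the arrays were brought to a common median in place of equal quantiles, it was -0.25 in KO and -0.12 in CON, and 32.3% of the KO differences counted were upward, against 43.0% with quantile normalization. Genes were counted against a difference of 0 and not against the median difference, so counts of small differences depend on the scaling. With the common median, 2397 genes were lower in KO, against 1782. In bulk tissue, fewer cells of a type and less RNA per cell cannot be told apart.

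The KO differences were divided by what the same gene did in CON. A gained rise or fall was counted in KO, was not counted in the same direction in CON, and exceeded the CON difference by at least 1.5-fold. There were 785 gained rises (8.49% of the genes considered) and 897 gained falls (9.70%). The rises counted in both genotypes numbered 360, which is 26.8% of the KO rises and 62.5% of the CON rises, and the falls counted in both numbered 306, which is 17.2% of the KO falls and 62.6% of the CON falls. Another 197 rises and 579 falls of KO were borderline, since their excess over CON was under 1.5-fold. The CON side had 186 rises and 145 falls that were not counted in KO. Of the gained rises, 451 were neither in CON, 296 were detected on neither CON array and 38 were lower in CON. With the deposited normalized values there were 454 gained falls, and without the minimum on the excess 1476. The excess of KO over CON rests on 1 array for each group and was not tested.

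**Figure D1:**
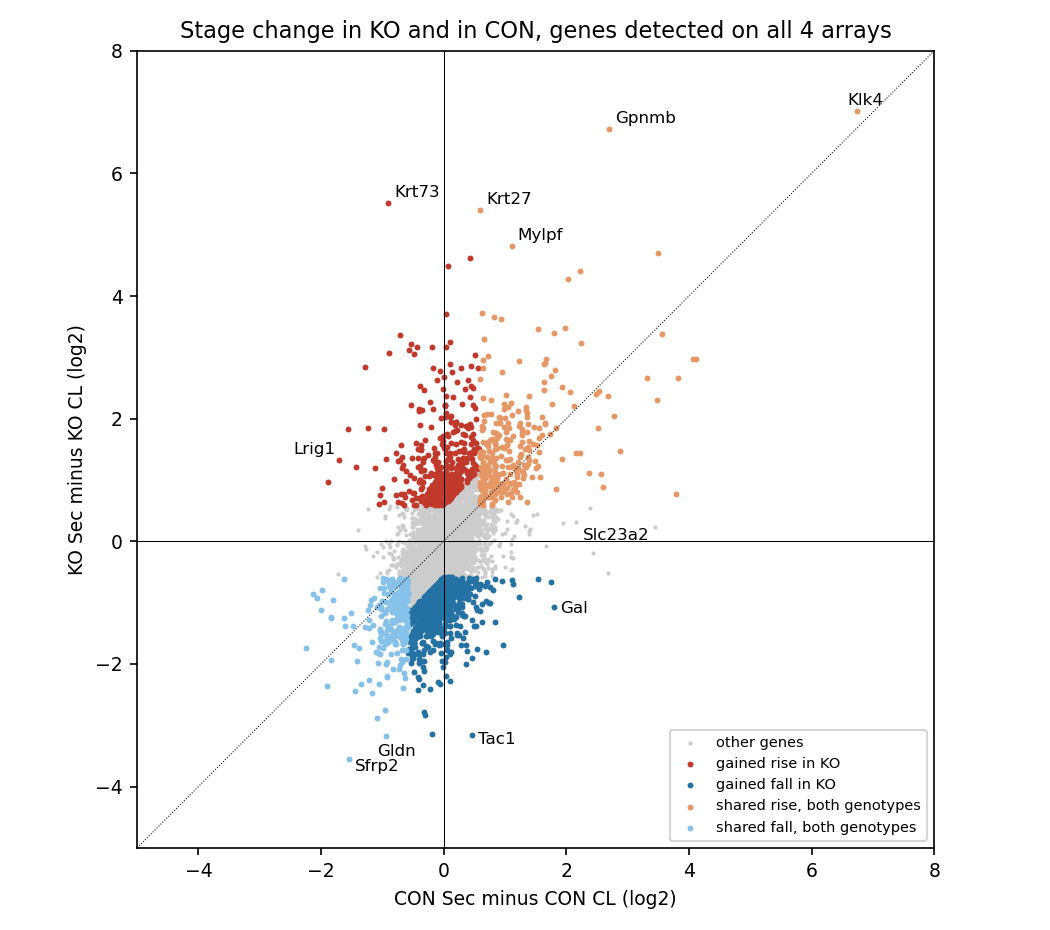
Each point is 1 of the 7819 genes detected on all 4 arrays, with the KO difference (Sec minus CL, log2) on the vertical axis, the CON difference on the horizontal axis, and a dotted line where they are equal. Klk4 lies near that line, Krt73 and Gpnmb lie far above it, and Tac1 and Gldn lie far below it. Genes not detected on a CON array, such as Krt71, cannot be shown here.

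The enamel program was present in KO, and its stage change was in large part the one of CON. Klk4, the protease that degrades enamel matrix (chromosome 7 of GRCm38.p6, from 43881160 to 43885804), was at 13.21 at Sec and 6.19 at CL in KO, against 13.59 and 6.86 in CON. It was high at Sec and near the floor at CL in both genotypes, with a difference of 7.02 in KO and 6.74 in CON. Slc24a4, the potassium-dependent sodium-calcium exchanger of ameloblasts, was at 10.83 at KO Sec and 10.97 at CON Sec and not detected at CL in either, so that the differences were at least 4.80 and at least 4.78. Enam, an enamel matrix protein, was at 14.18 at Sec and 12.95 at CL in KO, against 13.13 and 12.01 in CON, and both levels were thus higher in KO with a similar difference (1.24 in KO, 1.13 in CON). Mmp20, the protease of the secretory stage, differed by 0.88 in KO and 0.94 in CON, and Tuft1, an enamel protein, by 1.47 and 1.07. Amelx, the gene of amelogenin, was already near the top of the scale at CL (15.32 at Sec and 14.91 at CL in KO, against 15.13 and 14.98 in CON), as was Ambn, the gene of ameloblastin, and neither was counted. Of 8 enamel matrix genes and partners considered, 5 were higher in KO and 3 neither (median 0.87), where 14.5% of all genes were higher. In CON 3 were higher and 5 neither (median 0.49), where 6.58% of all genes were higher. The 2 that were higher in KO and not counted in CON were Fam83h and Fam20c, a kinase of secreted proteins, with 0.89 in KO against 0.26 in CON.

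Of the ion transport genes of ameloblasts, 14 of 22 considered were higher at Sec in KO (median 0.93) and none was lower. In CON 16 of 21 were higher and 1 was lower (median 0.87). Over all genes 14.5% were higher at Sec in KO and 6.58% in CON. Of the 16 list members higher in CON, 11 were also higher in KO, and the others were neither in KO. Cftr, a chloride channel, was at 10.41 at Sec and 8.37 at CL in KO, against 10.55 and 7.78 in CON. The transferrin receptor Tfrc differed by 1.85 in KO and 2.52 in CON, and Stim1, a calcium sensor of the endoplasmic reticulum, by 1.62 and 1.27. The gained members were 2, the iron exporter Slc40a1 (12.61 at Sec and 10.39 at CL in KO, against 11.26 and 10.78 in CON) and Slc5a8, a monocarboxylate transporter, which was detected at KO Sec alone (7.84, a difference of at least 1.82). With the mean of all its probes Slc5a8 differed by 0.20 and was not counted. Some of the CON change was smaller or missing in KO. The ascorbate transporter Slc23a2 was at 8.46 at Sec and 8.14 at CL in KO, against 10.40 and 8.24 in CON. Alpl, the phosphatase of mineralizing tissue, was at 12.69 at Sec and 12.73 at CL in KO, against 13.39 and 12.80 in CON. The study selected a list of dental genes on these samples, so its count is not independent evidence of a direction: 15 of 33 were higher in KO, 1 was lower and 17 were neither (median 0.51), and 17 of 32 were higher in CON (median 0.62).

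What KO Sec held beyond this was led by hair. The 10 brightest genes detected at KO Sec and not at KO CL were Krt71, Krt34, Krt33a, S100a3, Krt86, Prr9, Krtap19-9b, Krtap1-5, Krt26 and Krt31, with levels between 14.56 and 12.90, and none of them was detected on either CON array. Krt71, a type II keratin of the inner root sheath (chromosome 15 of GRCm38.p6, from 101733949 to 101743097), was at 14.56 at Sec and 4.75, not detected, at CL in KO, against 4.72 and 4.62 in CON, neither detected. Its difference in KO was at least 8.54, and at least 6.99 with the deposited normalized values, so the size of the bound depends on the background correction. Krt34, a type I keratin of the hair shaft (chromosome 11, from 100037347 to 100041554), was at 14.42 at Sec and 4.66, not detected, at CL in KO, against 4.85 and 4.70 in CON, neither detected, with a difference of at least 8.40, and at least 6.85 with the deposited values. Of the 10 hair shaft keratins on the array, 8 were detected at KO Sec and none at KO CL, with differences of at least 2.48 to at least 8.40 (median 6.21 with undetected values at their bound). Genes detected at KO Sec and not at KO CL, such as all 8 of these keratins, were included only through the array where they are high. Counts of them are a description and are not set against the share of all genes. Of the genes considered in lists described below, KO CL detected 4 of 17 of the inner root sheath, 0 of 26 keratin-associated, 1 of 14 Hox and 25 of 44 cornified envelope genes. It detected 26 of 39 transcription factors, 8 of 12 epidermal keratins, 12 of 21 barrier lipid and 12 of 19 junction genes. It also detected 21 of 26 muscle, 5 of 10 melanocyte, 1 of 6 mast cell and 1 of 3 adipocyte genes. The other members considered were included only through KO Sec. None of the 10 was detected on a CON array at CL, Sec or Mat.

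For the inner root sheath and its neighbouring companion layer, 20 genes were on the array, of which 17 were considered in KO and all 17 were higher (median 5.52). In CON 6 were considered, of which 1 was higher, 1 lower and 4 neither. These keratins did not all start from nothing. Krt27, a type I inner root sheath keratin, was at 15.01 at Sec and 9.60 at CL in KO, against 9.58 and 8.98 in CON, so that it was detected on all 4 arrays and differed by 5.41 in KO and 0.60 in CON. Krt73, a type II partner, was at 13.96 at Sec and 8.44 at CL in KO, against 8.87 and 9.78 in CON, and was thus higher at Sec in KO and lower at Sec in CON (5.52 and -0.91). The keratins Krt71, Krt72 and Krt26 of the same sheath were detected at KO Sec alone of the 4 arrays. Crym, a thyroid hormone-binding protein, was at 12.19 at Sec and 6.04 at CL in KO, against 5.93, not detected, and 6.31 in CON. Probes of keratins, keratin-associated proteins and small proline-rich proteins may cross-hybridize within their families, so single members of these families are uncertain.

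Promoter windows of genes named above are shown to compare those of hair, epidermis and enamel, from 250 bases before to 50 after the gene start, as RefSeq gives them on GRCm38.p6. Capitals mark the letters TATAAA or, in Lor, TGANTCA, each searched on both strands.
Krt71: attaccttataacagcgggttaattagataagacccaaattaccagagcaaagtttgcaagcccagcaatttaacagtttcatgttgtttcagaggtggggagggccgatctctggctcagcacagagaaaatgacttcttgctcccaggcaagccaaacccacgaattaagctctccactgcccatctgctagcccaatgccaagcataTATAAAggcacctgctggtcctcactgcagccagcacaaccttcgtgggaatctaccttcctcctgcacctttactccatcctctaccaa
Krt34: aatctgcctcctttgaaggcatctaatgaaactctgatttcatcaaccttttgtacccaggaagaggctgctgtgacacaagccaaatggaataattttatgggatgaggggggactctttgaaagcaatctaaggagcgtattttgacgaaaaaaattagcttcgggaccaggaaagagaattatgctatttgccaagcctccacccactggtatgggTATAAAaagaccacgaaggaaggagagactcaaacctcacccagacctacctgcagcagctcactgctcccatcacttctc
Lor: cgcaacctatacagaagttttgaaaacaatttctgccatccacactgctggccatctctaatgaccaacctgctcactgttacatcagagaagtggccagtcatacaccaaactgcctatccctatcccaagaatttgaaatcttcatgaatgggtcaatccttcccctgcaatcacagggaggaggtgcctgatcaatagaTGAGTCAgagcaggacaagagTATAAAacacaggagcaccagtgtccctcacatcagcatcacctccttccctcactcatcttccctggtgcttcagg
Amelx: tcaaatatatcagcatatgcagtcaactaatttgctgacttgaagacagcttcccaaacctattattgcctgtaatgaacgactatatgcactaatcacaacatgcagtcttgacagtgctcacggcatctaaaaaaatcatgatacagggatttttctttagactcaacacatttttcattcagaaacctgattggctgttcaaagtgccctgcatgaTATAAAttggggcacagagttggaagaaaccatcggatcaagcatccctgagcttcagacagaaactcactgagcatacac
Klk4: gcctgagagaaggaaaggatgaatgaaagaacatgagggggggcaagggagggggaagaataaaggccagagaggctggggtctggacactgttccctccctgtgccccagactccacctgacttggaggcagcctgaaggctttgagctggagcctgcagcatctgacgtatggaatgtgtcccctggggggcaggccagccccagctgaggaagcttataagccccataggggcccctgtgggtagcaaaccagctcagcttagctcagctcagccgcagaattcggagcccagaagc
They lie at chr15:101743048-101743347, chr11:100041505-100041804, chr3:92083093-92083392 and chrX:169187160-169187459, all on the minus strand, and at chr7:43880910-43881209 on the plus strand, in the order printed. TATAAA began 40 bases before the gene start in Krt71, 31 in Krt34, 27 in Lor and 31 in Amelx, and Klk4 had none in this window. Windows were found for 7500 of the 9249 genes considered, of which 741 held TATAAA (9.9%). The share was 17.9% of 597 gained rises, 12.2% of 279 shared rises, 11.1% of 702 gained falls and 14.7% of 238 shared falls. It was 79.2% of 24 keratin-associated genes higher in KO and 60.0% of the 15 in the inner root sheath list. Among cornified envelope genes higher in KO it was 26.5% of 34, and 3 of 4 hair shaft keratins held TATAAA. The keratin-associated genes and hair shaft keratins were included only through KO Sec. Shares of whole families, with members not higher in KO, were not taken. The list shares, here and for TGANTCA, are a description and are not set against the share of all windows. TGANTCA, the letters that AP-1 factors bind, were in 6.8% of all windows, 12.7% of the gained rises and 5.8% of the gained falls, and of the genes higher in KO that had a window, in 26.5% of 34 in the cornified envelope list, 29.2% of the 24 keratin-associated genes, 6.7% of 15 in the inner root sheath list and none of 4 hair shaft keratins. GCCNNNGGC, the letters that AP-2 factors bind, were in 29.3% of all windows and 26.8% of the gained rises, and CTTTGAT or CTTTGTT, those of LEF1 and TCF factors, in 7.8% and 9.9%. A match describes letters in a window and not a bound site.

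Keratin-associated proteins, which crosslink the keratins of the hair shaft, were detected at KO Sec for 26 of the 30 on the array, at KO CL for none, and 25 were counted as higher (median 4.48). Krtap19-9b was at 13.38 at KO Sec and 5.07, not detected, at KO CL, against 5.19 and 4.92 in CON. The genes lie in clusters. Each region below runs from the first to the last member there of the keratin, keratin-associated and cornified envelope lists. Its counts therefore restate those lists in part and are a description. Members detected at KO Sec alone were included only through that array. On the whole array, 785 of 16593 genes were gained rises. On chromosome 11 of GRCm38.p6, between 99315516 and 100261029, where type I keratins and keratin-associated proteins lie, 18 of the 31 genes on the array were gained rises, and 14 were detected at KO Sec alone. In the type II keratin region of chromosome 15, between 101348315 and 101996624, 14 of the 26 on the array were gained rises and 14 were detected at KO Sec alone. In the keratin-associated region of chromosome 16, between 88646824 and 89420111, 11 of 16 were gained rises and 12 were detected at KO Sec alone. In the epidermal differentiation complex of chromosome 3, between 90560356 and 93471980, which holds genes of the cornified envelope and S100 proteins, 18 of 45 were gained rises and 13 were detected at KO Sec alone.

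**Figure D2:**
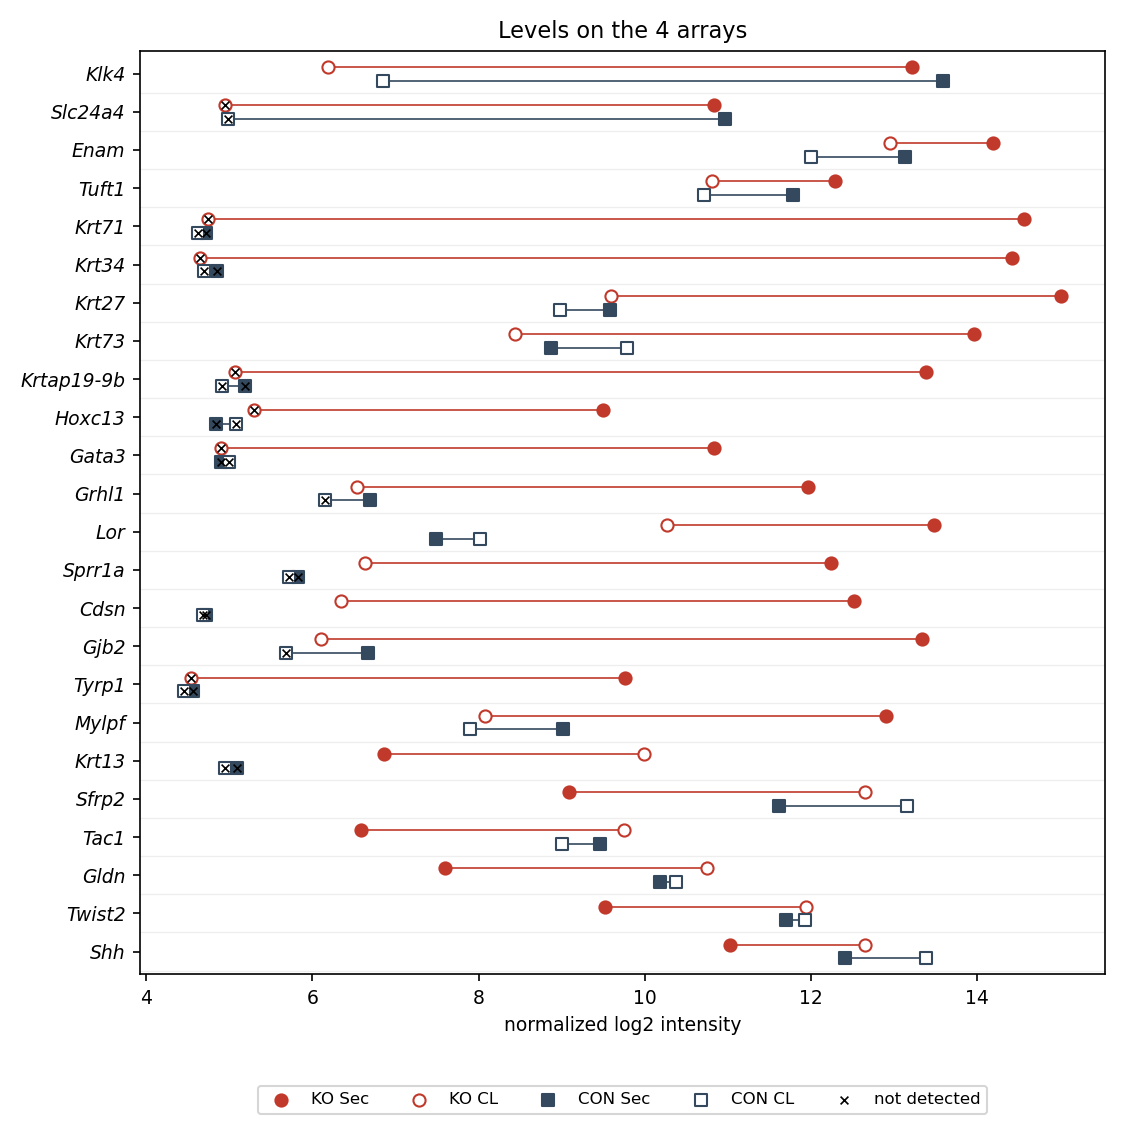
Normalized log2 intensity (horizontal axis) of 24 genes, each row 1 gene, with KO Sec and KO CL as filled and open circles joined by a red line, CON Sec and CON CL as filled and open squares joined by a dark line, and a cross on values that were not detected. Klk4 and Slc24a4 have long lines in both genotypes, the keratins and cornified envelope genes have long lines in KO alone, and the genes from Krt13 downwards are lower at KO Sec than at KO CL.

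Transcription factors known from hair and epidermis were also among the rises. Of 39 considered, 27 were higher in KO, 2 lower and 10 neither (median 1.37), and in CON 10 of 28 were higher and none lower (median 0.27). Among all genes, 14.5% were higher and 19.3% lower in KO, against 6.58% and 5.58% in CON. These shares are no measure for the factors not detected at KO CL, which were included only through KO Sec. Grhl1, a grainyhead factor of epidermal differentiation, was at 11.96 at Sec and 6.54 at CL in KO, against 6.70 and 6.15, not detected, in CON. Gata3, a factor of inner root sheath and epidermis, was at 10.83 at KO Sec and on none of the other 3 arrays. Hoxc13, a factor that hair keratin genes need, was at 9.50 at Sec and 5.30, not detected, at CL in KO, against 4.84 and 5.08 in CON. The 2 that went the other way were Dlx4 (-0.79, or -0.39 and not counted with the deposited values) and Msx1 (-0.95). Bnc1 and Sox21 were higher in both genotypes, with 2.52 and 2.14 in KO against 1.93 and 1.35 in CON. Hox genes, which pattern the trunk and limbs and are silent in the neural crest of the jaws, were detected at KO Sec for 14 of 38 on the array, against 1 each at KO CL, CON Sec and CON CL. Of these, 9 were counted as higher, with Hoxb7 at 8.67, Hoxa5 at 8.44 and Hoxc6 at 8.42 at KO Sec, and none of the 9 was detected on a CON array at CL or Mat.

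Epidermal genes formed the other large group. Of 44 cornified envelope genes considered in KO, 39 were higher at Sec, 1 lower and 4 neither (median 2.77), and in CON 4 of 13 were higher, 2 lower and 7 neither (median 0.08). Sprr1a, a precursor of the envelope, was at 12.24 at Sec and 6.64 at CL in KO, against 5.82 and 5.72, neither detected, in CON. Cdsn, the gene of corneodesmosin, was at 12.51 at Sec and 6.34 at CL in KO, against 4.73 and 4.68, neither detected, in CON. Sprr4 and the kallikrein Klk7 were detected at KO Sec alone, with differences of at least 6.37 and at least 6.35. Of epidermal keratins 8 of 12 were higher and none lower, with Krt10, a keratin of the suprabasal layers, at 13.62 at Sec and 10.99 at CL in KO, against 9.91 and 10.02 in CON. Gjb2, the gap junction gene with the largest difference among genes detected on both KO arrays (chromosome 14 of GRCm38.p6, from 57098602 to 57104702), was at 13.33 at Sec and 6.11 at CL in KO, against 6.67 and 5.68, not detected, in CON. Its difference in KO was 7.23, and 5.74 with the deposited values. Desmosome, claudin and gap junction genes were higher in 13 of 19 considered and lower in 1 in KO, against 3 and 2 of 13 in CON. Cldn4, a claudin of tight junctions, differed by 4.75 in KO and by at most -1.11 in CON. Of barrier lipid genes 12 of 21 were higher and none lower, led by the ceramidase Acer1 (at least 4.76) and followed by the elongase Elovl4 (3.16 in KO, -0.19 in CON). Of 12 AP-1 and immediate early genes, all detected at KO CL, 6 were higher in KO, 1 lower and 5 neither. In CON none of them was higher and 1 was lower. Over all genes, 14.5% were higher and 19.3% lower in KO, against 6.58% and 5.58% in CON. The other lists of this paragraph held members included only through KO Sec, for which these shares are no measure. Egr2, a zinc finger factor of this group, was at 10.49 at Sec and 6.78 at CL in KO, against 6.98 and 6.94 in CON. The study's own list of epidermal genes, chosen on these samples and so not independent, had 23 of 30 higher and 2 lower, and its list of hair genes 24 of 26 higher and 2 neither.

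Part of the epidermal signal was already present at KO CL. Lor, the gene of loricrin, the main envelope protein, was at 13.48 at Sec and 10.27 at CL in KO, against 7.48 and 8.01 in CON. Of the 62 cornified envelope genes on the array, 43 were detected at KO Sec and 25 at KO CL, against 13 at CON Sec and 12 at CON CL, and their summed linear level was 107923 at KO Sec and 11661 at KO CL, against 9599 and 6960 in CON. Krtdap, a secreted protein of keratinocyte differentiation, was at 12.54 at Sec and 9.06 at CL in KO and detected on neither CON array. A few such genes were at or above their Sec level at CL. Of 10 oral mucosa genes considered, 5 were lower at Sec in KO, 2 higher and 3 neither, and of 6 in CON 2 were lower, 2 higher and 2 neither. Krt13, a keratin of this tissue, was at 6.86 at Sec and 9.98 at CL in KO, against 5.09 and 4.95, neither detected, in CON, and Krt4, its partner in that tissue, was detected at KO CL (7.17) and not at KO Sec. Sprr2d, the 1 envelope gene counted as lower, was at 6.98 at KO CL and not detected at KO Sec. With the deposited values Krt4 (-0.50) and Sprr2d (-0.40) were not counted. Hair shaft keratins and keratin-associated proteins, in contrast, were detected at KO CL in 0 of 10 and 0 of 30.

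**Figure D3:**
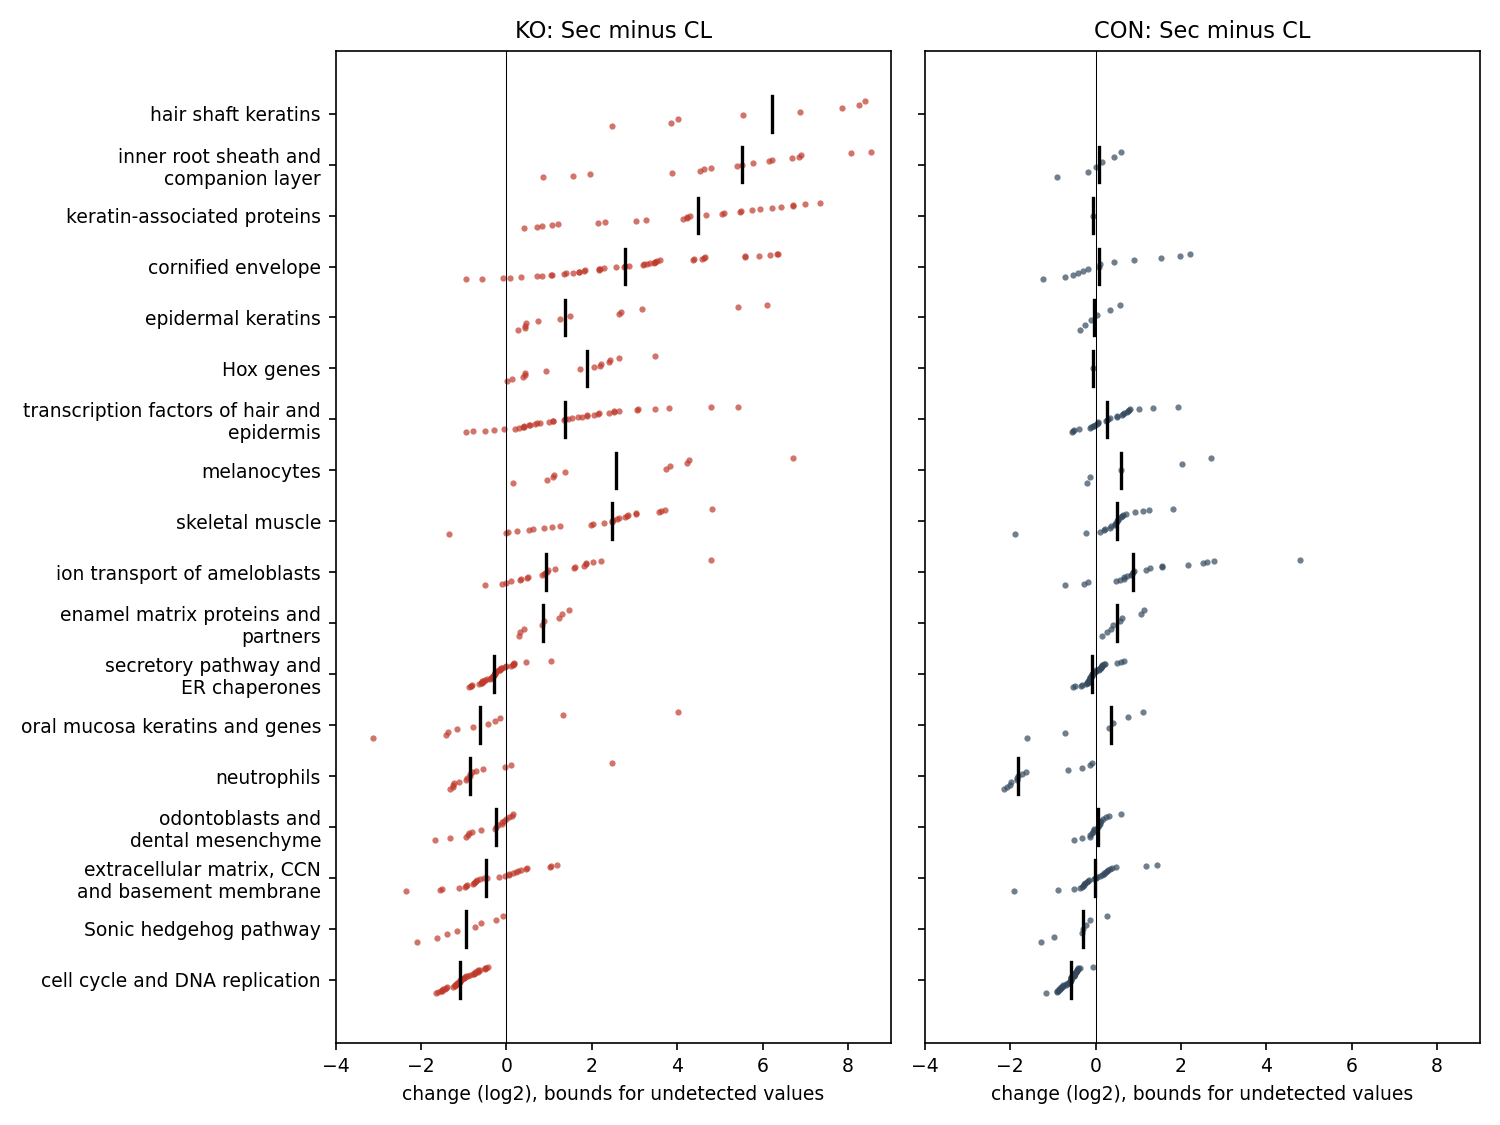
Each point is 1 gene of the list named at the left, placed at its difference (Sec minus CL, log2, horizontal axis) in KO in the left panel and in CON in the right panel, with undetected values at their bound and the list median as a black bar. The hair shaft, inner root sheath, keratin-associated and cornified envelope lists have medians far to the right in KO only (6.21, 5.52, 4.48 and 2.77). The epidermal keratin and transcription factor lists lie less far to the right (1.36 and 1.37 in KO, -0.03 and 0.27 in CON). The ion transport list has similar medians in both (0.93 and 0.87), and the cell cycle list lies left of 0 in both (-1.08 and -0.58).

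Markers of other cell types were higher at KO Sec as well. Of 26 skeletal muscle genes considered, 21 were higher at KO Sec, 1 lower and 4 neither (median 2.48), and in CON 8 of 21 were higher and 1 lower (median 0.51). The shares of all genes were 14.5% higher and 19.3% lower in KO, against 6.58% and 5.58% in CON. In this and the next lists, they are no measure for members included only through KO Sec. Mylpf, a myosin light chain of fast muscle, was at 12.90 at Sec and 8.08 at CL in KO, against 9.01 and 7.90 in CON, and Acta1, skeletal actin, at 13.94 and 11.09 in KO, against 11.47 and 11.02 in CON. The summed linear level of the 29 muscle genes on the array was 78284 at Sec and 12815 at CL in KO, against 16111 and 11310 in CON, and at CON Mat it was 77119. Among melanocyte genes 9 of 10 were higher in KO and none lower (median 2.56), with 3 of 5 higher in CON. The melanin enzyme gene Tyrp1 was at 9.77 at KO Sec and not detected on the other 3 arrays, Mlana and Pmel had the same pattern (10.27 and 9.85 at KO Sec), and Gpnmb, which macrophages and osteoclasts also express, was at 13.41 at Sec and 6.69 at CL in KO, against 9.43 and 6.74 in CON. With the mean of its probes Gpnmb differed by 3.51 in KO. The summed level of the melanocyte list was 22902 at KO Sec and 3147 at KO CL, against 3703 and 2725 in CON. Gpnmb carried a large part of the KO Sec sum, so that sum is not specific to melanocytes. Of mast cell genes 5 of 6 considered were higher, among them the proteases Cpa3 (9.21 at KO Sec) and Mcpt4 (8.71), both detected at KO Sec alone. Only 1 of the 6 was detected at KO CL. Of 7 adipocyte genes on the array 4 were detected on no array. The 3 considered were higher, of which 1 was detected at KO CL. Adipoq was at 7.47 at KO Sec, a difference of at least 1.44, or at least 0.66 with the deposited values. The part of muscle and of these other cells in the KO difference was not tested.

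**Figure D4:**
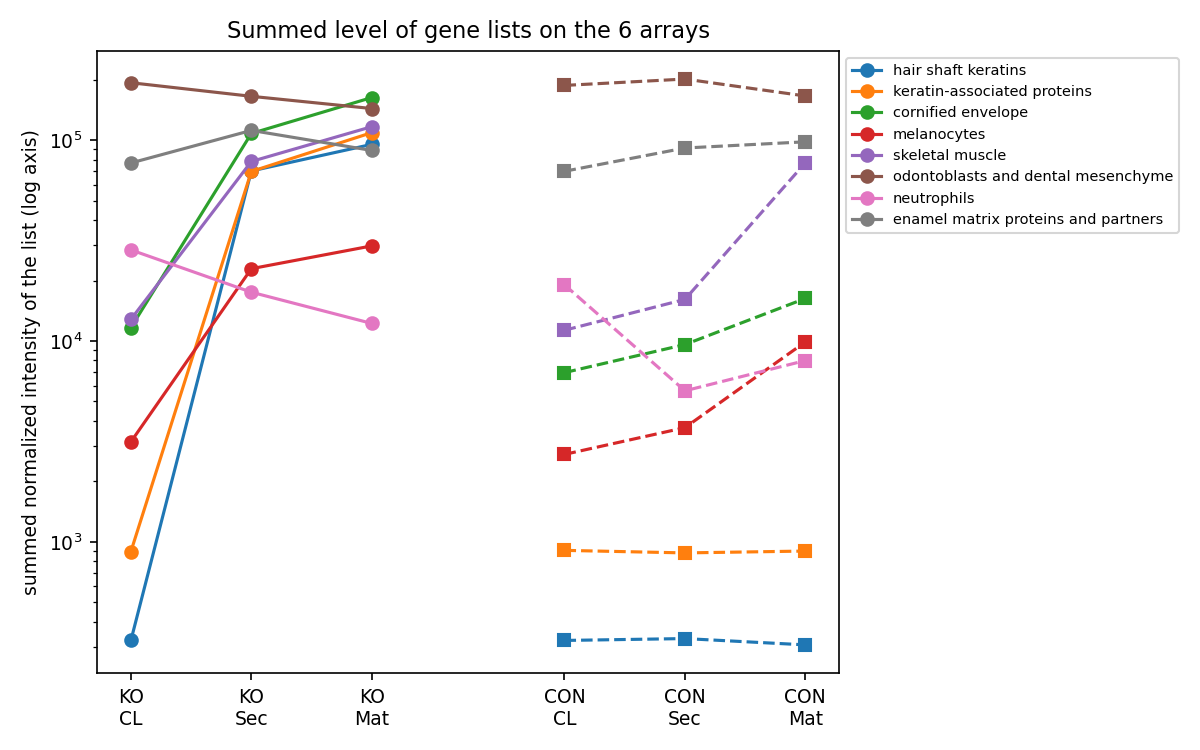
Summed normalized intensity (linear values on a log axis) of 8 gene lists at CL, Sec and Mat, with the 3 KO arrays at the left (circles, solid lines) and the 3 CON arrays at the right (squares, dashed lines). Hair shaft keratins stood at 323 at KO CL, 70205 at KO Sec and 95244 at KO Mat, and between 307 and 330 on the CON arrays, while the skeletal muscle list reached 116651 at KO Mat and 77119 at CON Mat.

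Falls were smaller than rises. The 10 largest among genes detected on both KO arrays lay between -3.55 and -2.48, and 22 of the 897 gained falls were at least 4-fold. Signals and factors of mesenchyme were among them. Sfrp2, a secreted Wnt inhibitor, was at 9.09 at Sec and 12.64 at CL in KO, against 11.61 and 13.16 in CON, so that it was lower at Sec in both genotypes (-3.55 and -1.55). Fgf10, the mesenchymal growth factor that maintains the incisor epithelium, differed by -2.75 in KO and -0.95 in CON. Rspo2, an activator of Wnt signalling, was detected at KO CL (8.71) and not at KO Sec, against 8.38 at Sec and 8.76 at CL in CON. Tac1, a neuropeptide precursor, was at 6.58 at Sec and 9.75 at CL in KO, against 9.46 and 9.0 in CON. Gldn was at 7.60 at Sec and 10.75 at CL in KO, against 10.19 and 10.38 in CON, and Twist2, a mesenchymal transcription factor, at 9.53 and 11.94 in KO, against 11.70 and 11.92 in CON. In these 3 genes KO CL stood within 1 log2 unit of CON CL, and KO Sec was the array that stood apart. Vwa2, a protein of the extracellular matrix, was lower at Sec in both genotypes (-2.26 in KO, -1.22 in CON).

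Cell cycle and DNA replication genes were lower at Sec in 36 of 40 considered in KO and higher in none (median -1.08), and in 19 of 40 in CON (median -0.58), where 19.3% and 5.58% of all genes were lower. The replication helicase subunit Mcm5 was at 9.82 at Sec and 11.46 at CL in KO, against 10.39 and 11.56 in CON, and Cdk1, the kinase of mitotic entry, at 8.73 and 10.25 in KO, against 9.43 and 10.08 in CON. With the mean of its probes Cdk1 differed by -0.49 in KO and was not counted. Of these genes 18 were shared falls and 5 were gained falls, Aurka (-1.54 in KO, -0.51 in CON) and Mcm6 among them. In the Sonic hedgehog pathway, which acts between dividing epithelium and its surroundings, 6 of 8 considered were lower in KO and none higher (median -0.95), and 2 of 7 were lower in CON (median -0.30). The ligand Shh was at 11.02 at Sec and 12.65 at CL in KO, against 12.40 and 13.38 in CON. The receptor Ptch1 (-1.16 in KO, -0.30 in CON) and the effector Gli3 (-0.74 in KO, 0.27 in CON) were gained falls, and with the deposited values Gli3 was not counted (-0.36). Of 16 Notch pathway genes 3 were higher, 4 lower and 9 neither in KO, and all 16 were neither in CON. In KO 14.5% of all genes were higher and 19.3% lower, so these counts, and those of the Wnt list below, stand near the background. The receptor Notch1 was at 11.09 at Sec and 9.75 at CL in KO, against 9.65 and 9.98 in CON, and Nrarp, a feedback inhibitor, differed by 1.04 in KO and -0.48 in CON. The ligand-like Dlk1 was at 8.59 at Sec and 10.63 at CL in KO, against 11.13 and 11.14 in CON, and the target Hey1 differed by -0.89 in KO and 0.52 in CON. In the list of Wnt genes 6 were higher and 8 lower of 32 in KO, against 4 and 5 of 29 in CON. In that of BMP and TGF-beta genes 6 were higher and 3 lower of 20 in KO, against 8 and 0 of 20 in CON. Over all genes in CON, 6.58% were higher and 5.58% lower.

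Genes of mesenchyme, matrix, macrophages, osteoclasts, endothelium and neutrophils were lower more often than higher in KO. All genes leaned the same way, with 19.3% lower and 14.5% higher in KO, against 5.58% and 6.58% in CON. Lymphocyte genes were higher in 1 and lower in 1 of 5 in KO. Schwann cell and nerve genes were lower in 1 of 7 and higher in none. Of 17 genes of odontoblasts and dental mesenchyme, 7 were lower in KO, 10 were neither and none was higher (median -0.23), and in CON 1 was higher and none lower (median 0.07). Ibsp, the gene of bone sialoprotein, was at 10.83 at Sec and 12.49 at CL in KO, against 11.88 and 11.94 in CON, and the growth factor receptor Pdgfra differed by -1.31 in KO and -0.32 in CON. Of 28 genes of extracellular matrix, CCN proteins and basement membrane, 13 were lower and 3 higher in KO, against 2 and 2 in CON. Macrophage genes were lower in 5 of 13, osteoclast genes in 3 of 5 and endothelial genes in 5 of 15, with none higher in these lists. Of the groups named first, neutrophil genes alone had the lower median in CON. They were lower in 11 of 15 in KO (median -0.86) and in 10 of 13 in CON (median -1.81), with a summed linear level of 17493 at Sec and 28404 at CL in KO, against 5649 and 19039 in CON. The part of these cells in the differences was not tested. Secretory pathway and ER chaperone genes, which secretory ameloblasts use heavily, were higher in 1 of 38 and lower in 6 in KO (median -0.28), a smaller share lower than the 19.3% of all genes, and higher in 2 and lower in none in CON.

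The gained differences lay at Sec more than at CL. Between KO CL and CON CL 159 of 8794 genes were higher in KO (1.81%) and 176 lower (2.0%), and between KO Sec and CON Sec 1059 of 9073 were higher (11.7%) and 1378 lower (15.2%). Of the 785 gained rises, 693 were higher at KO Sec than at CON Sec (88.3%), and 25 were lower and 18 higher at KO CL than at CON CL. Of the 897 gained falls, 722 were lower at KO Sec than at CON Sec (80.5%), and 35 were higher and 8 lower at KO CL than at CON CL. These shares use the same arrays as the definition and are given as a description. Genes detected on exactly 1 of the 4 arrays numbered 441 at KO Sec, 135 at KO CL and 82 at CON Sec. Of the 441, 389 were also detected at KO Mat and 114 at CON Mat.

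The Mat arrays, which the definition did not use, show where these genes stood at the next stage, although a comparison with CON CL shares that array with the definition. Relative to CON CL, 272 of the gained rises were higher at CON Mat (34.6%, where 17.1% of all genes were), 215 were detected at neither and 298 were neither or lower. The median KO difference was 1.31 in those also higher at CON Mat, 2.47 in those not detected in CON, and 1.0 in the rest, and 53 of the 68 gained rises of at least 16-fold were not detected at CON Mat or CON CL. None of the 8 gained hair shaft keratins, the 25 gained keratin-associated genes and the 9 gained Hox genes was higher at CON Mat, against 5 of 36 cornified envelope genes, 6 of 10 of desmosomes, claudins and gap junctions, 5 of 6 AP-1 and immediate early genes, and 11 of 12 muscle genes. Of the gained falls, 495 were lower at CON Mat than at CON CL (55.2%, where 20.6% of all genes were), with a median of -0.70. All 5 gained falls of the cell cycle list and all 3 of the Sonic hedgehog list were among them. Dlk1 was at 6.92, Twist2 at 8.70 and Gldn at 7.13 at CON Mat, each below its level at KO Sec. Shared rises were higher at CON Mat than at CON CL in 347 of 360 (96.4%), with a median of 1.89.

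**Figure D5:**
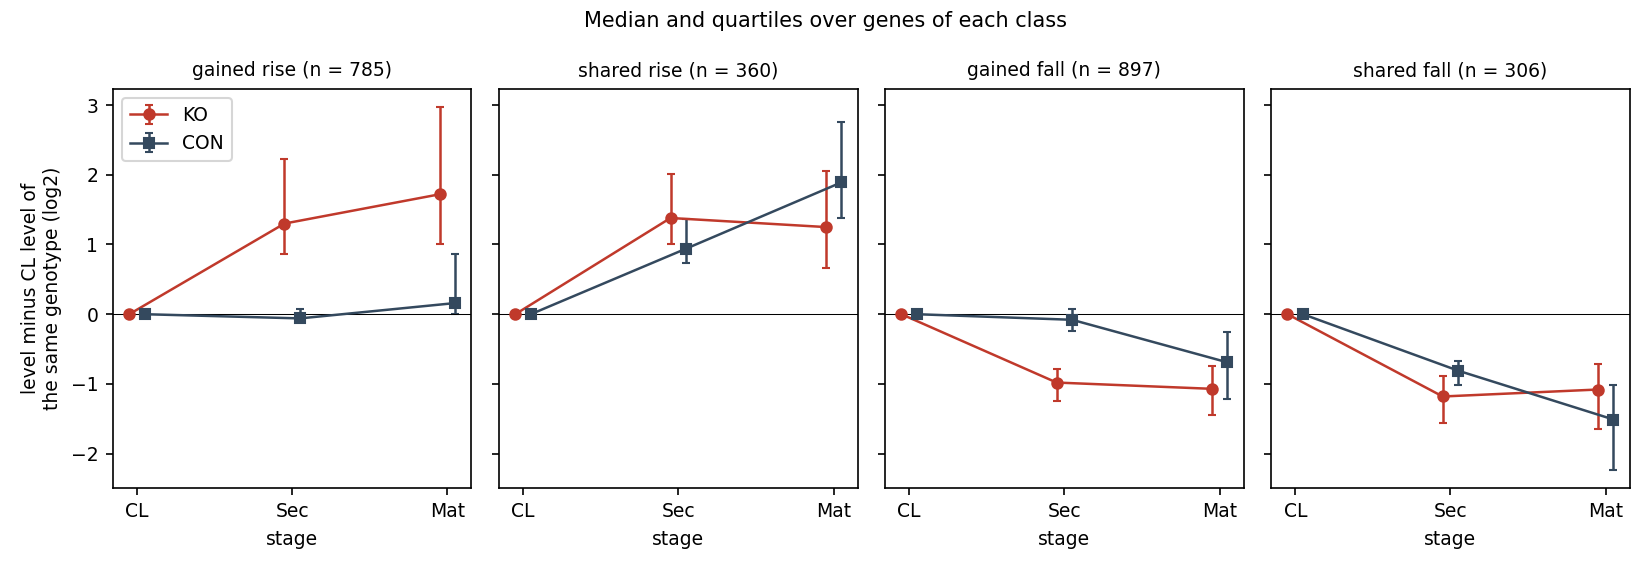
Median over the genes of each class (points) with quartiles (bars) of the level minus the CL level of the same genotype (log2, vertical axis) at CL, Sec and Mat, for KO (circles) and CON (squares). Undetected values were set to the floor of their array unless above it. Gained rises reach 1.30 at Sec and 1.72 at Mat in KO and are at -0.06 and 0.16 in CON. Of these 785 genes, 296 were detected on neither CON Sec nor CON CL, so the CON medians depend on the floors (6.13 at CON Sec, 6.19 at CON CL). Where a CON difference between Sec and CL was given, its median was 0.002. Gained falls are at -0.98 and -1.07 in KO and at -0.08 and -0.69 in CON. Shared rises are at 1.38 and 1.25 in KO and at 0.94 and 1.89 in CON.

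Over 7637 genes measured on these arrays, the KO difference between Sec and CL had a Pearson correlation of 0.71 (Spearman 0.69) with the CON difference between Mat and CL, and of 0.54 (0.50) with the CON difference between Sec and CL. The KO values share no array with either, and the CON differences share CON CL with each other, so the correlations are a description across genes of these arrays. The shared rises went on differently in the 2 genotypes after Sec, which was not tested. Between KO Mat and KO Sec 44 of the 360 were higher and 68 lower (median -0.09, where 7.54% of all genes were higher and 7.22% lower), while 250 were higher at CON Mat than at CON Sec (69.4%, where 13.3% of all genes were). At Mat 172 of them were lower in KO than in CON (47.8%, where 18.4% of all genes were) and 47 higher. Gained rises, in contrast, were higher at KO Mat than at CON Mat in 513 of 785 (65.4%, where 12.6% of all genes were).

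Of the 785 gained rises, 604 were in none of the 42 lists, and their largest were chosen by size after their values were seen. Prr9 was at 13.73 at KO Sec and detected on none of the other 3 arrays. Vsig8 was at 12.33 at Sec and 6.42 at CL in KO, and Ly6g6c, of the Ly6 family, at 12.91 and 7.19, with neither detected at CON Sec or CON CL. The beta-defensin gene Defb6 (11.21) and the proton pump gene Atp12a (11.04) were detected at KO Sec alone. Among gained falls outside the lists, the neuropeptide precursor Gal was at 6.37 at Sec and 7.43 at CL in KO, against 8.41 and 6.61 in CON. Another 5 genes, known to be induced by interferon, were picked after their values were seen, and no list of such genes was tallied. Ifit2 was at 6.12 at Sec and 7.80 at CL in KO, against 8.56 and 7.59 in CON, and Usp18, Gbp3, Igtp and Oasl2 lay between -0.61 and -0.91 in KO, against 1.13 to 1.75 in CON. With the deposited values Gal (-0.52), Usp18 (-0.43), Gbp3 (-0.42), Igtp (-0.53) and Oasl2 (-0.54) were under 1.5-fold in KO and not counted. In the 5 interferon-induced genes CON Sec was the highest of the 4 arrays.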

How the data were processed

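RNA of pooled dental tissue was hybridized by the authors to Illumina MouseRef-8 v2.0 bead arrays and read in GenomeStudio, whose version is not given in the sources used here. The deposited values were the mean intensity of 25697 probes on each of 6 arrays, neither scaled nor corrected for background, and a detection p-value for each probe. A deposited table of normalized intensity served as an alternative. The paper states that its data were normalized in GenomeStudio, and the method used there is not named in the sources used here. Intensities were background-corrected, quantile-normalized and put on the log2 scale with neqc of limma 3.58.1 in R 4.3.3 (offset 16). Of the probes, 23978 had a gene symbol, for 16593 genes; a gene with several probes (4777) took the brightest. Of 739 counted genes with several detected probes, 241 had a probe under 1.5-fold or the other way, of which 13 were at least 1.5-fold the other way. The procedure was tested on simulated data. Alternatives were another offset, scaling, fold, detection limit and probe rule. Precision is limited by having 6 arrays and by how far a probe stands above background.

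The genes and the 42 lists were chosen with earlier results of these data known, and 3 keratin-associated genes were added after their values were seen. Named genes were the 10 largest rises and falls, the 10 brightest detected at 1 stage only, the largest excesses over CON, up to 6 of each list with its exceptions, and genes the study names. Others are said to be chosen after their values were seen.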

Additional observations from a re-analysis of the deposited data

Results flagged for a closer look

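Genes counted in opposite directions in the 2 genotypes were singled out, with 1 array for each group, so that none of these differences was tested. There were 38 genes higher at Sec in KO and lower at Sec in CON, and 30 genes lower at Sec in KO and higher at Sec in CON. For the inner root sheath keratin Krt73 the KO difference exceeded the CON difference by 6.43 on the log2 scale, and for the claudin Cldn4 by 5.87, a lower bound since Cldn4 was not detected at CON Sec. In the other direction the KO difference minus the CON difference was -2.87 for the neuropeptide precursor Gal and -1.59 for the homeobox gene Dlx4. In 5 genes known to be induced by interferon, picked after their values were seen, it was -2.65 for Ifit2, -2.40 for Usp18, -2.14 for Gbp3, -2.14 for Igtp and -1.82 for Oasl2. With the deposited normalized values 11 of the 38 and 7 of the 30 genes remained in opposite directions, and Gal, Dlx4, Usp18, Gbp3, Igtp and Oasl2 were no longer counted as lower in KO.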

How the results depend on the processing

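With a fold of at least 2 in place of 1.5, 797 genes were higher and 653 lower at Sec in KO, 207 were higher and 103 lower in CON, gained rises numbered 488 and gained falls 307, and shared rises 143 and shared falls 65. With the deposited normalized values, 978 genes were higher and 1005 lower in KO, against 1342 and 1782 with neqc. In CON 316 were higher and 191 lower with the deposited values, against 576 and 489 with neqc. Gained falls then numbered 454, shared rises 222 and shared falls 130. Detection on both arrays left 486 gained rises, since fewer genes were considered. With no minimum on the excess over CON there were 1476 gained falls. The cause of the other shifts was not tested. Of the 785 gained rises, 525 remained with the deposited values, 699 with a common median and 677 with the mean of all probes, and of the 897 gained falls 441, 841 and 739 remained. Of the 96 named genes with a KO difference, 47 shifted by over 1.5-fold with the deposited values, 15 with an offset of 50 and 9 with the mean of all probes, and none reversed. Of the 90 that were counted, 9 lost the call with the deposited values (each lower in KO), 3 with the offset of 50 (Gbp3, Gli3 and Usp18), 3 with the mean of all probes (Cdk1, Oasl2 and Slc5a8) and 11 with a fold of at least 2. No paired analysis was possible because each genotype and stage had 1 array, and no array could be left out. Signal near background limits small differences of dim genes, and differences against undetected values are bounds.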
